A study of Mus musculus with 8 samples.

Results

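The annexin family was measured in lumbar dorsal root ganglia (DRGs), the clusters of sensory nerve cell bodies beside the spinal cord, of α-Gal A(-/0) mice, a model of Fabry disease, and of wildtype mice. Members were the probes of the array whose gene name was Anxa1, Anxa2, Anxa3, Anxa4, Anxa5, Anxa6, Anxa7, Anxa8, Anxa10 or Anxa11. These 10 genes had 15 probes among the 55681 probes of the array that were not controls, and 5 of the genes had 2 probes. Of the 15 probes, 11 from 8 genes could be tested, as they stood well above background on each of the 8 arrays and had a value on each. The other 4 (Anxa3, Anxa10, the dimmer Anxa4 probe and the dimmer Anxa8 probe) are described without a test.

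The FD group held 4 samples of male α-Gal A(-/0) mice, which lack the lysosomal enzyme that removes terminal galactose from glycosphingolipids. The wildtype group held 4 samples of male C57BL/6J mice. All mice were 20 to 24 weeks old and untreated, and each sample pooled the DRGs L3 to L5 of 2 mice, which made 8 mice per group. The labels give the strain C57BL/6J for both groups, whereas the methods give the FD background as C57BL/6, and both genotypes came from inbred colonies kept apart, so genotype and colony cannot be told apart. The disrupted gene, Gla, gave no check of the labels. Its only probe lies at position 2785 of its transcript, the part of the gene that was disrupted is not given in the sources used here, and its log2 signal was 16.51 to 16.71 in FD and 16.49 to 16.72 in wildtype. Both groups carried strong signal of the neuronal genes Prph, Uchl1 and Tubb3, with log2 signals between 16.1 and 16.63 over the 8 samples.

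Annexins are cytosolic proteins that bind acidic phospholipids, above all phosphatidylserine, when calcium rises. They gather at the inner face of the plasma membrane and on endosomes and secretory vesicles, where they join membranes, help to seal wounds of the cell surface and anchor the cytoskeleton, and some of them also act outside the cell. In sensory ganglia they are found in neurons as well as in glia, fibroblasts and blood cells. S100a10, a partner of Anxa2, is known for bringing ion channels to the surface of nociceptors.

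Each probe is a 60-base oligonucleotide, and the first 30 bases are given here for the genes on which the results turn, all with a pair of probes. The pairs are shown because they read different places of the gene. The sequences are those of the array design, 5′ to 3′, in lower case throughout, with positions on the mm9 build. Both probes of Anxa4 read the minus strand of chromosome 6, the brighter at chr6:86686883-86686942 and position 1894 of NM_013471, the dimmer at chr6:86700845-86700904 and position 591 of the transcript ENSMUST00000127152. The probes of Anxa8 read the plus strand of chromosome 14 at chr14:34913661-34913720 and chr14:34913148-34913207, at positions 1785 and 1272 of the same transcript, NM_013473. The probes of Anxa1 read the minus strand of chromosome 19 at chr19:20447938-20447997 and chr19:20449722-20449781, at positions 1321 and 991 of NM_010730.
Anxa4 brighter probe: ccactgtgcctttttaatcttattcagaaa
Anxa4 dimmer probe: tttcaacactcctggattccagatctcttc
Anxa8 brighter probe: atcctctgatcgtggtctccgagcctgaag
Anxa8 dimmer probe: gtataccgcccaccctagcattacctctga
Anxa1 brighter probe: gccccataagcaagtcactttggtaccatt
Anxa1 dimmer probe: tgacatgaatgaaatcaaagtattttacca

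The question was whether annexin mRNA differed between FD and wildtype DRGs. Signals are log2 of the processed array signal after quantile normalization, and differences are FD minus wildtype on that scale with the standard error (SE) of limma, a linear model fitted over all 29432 tested probes. A probe was called when its p-value was under 0.05 after Benjamini-Hochberg adjustment across that whole set. Probes bind with unequal strength, so a level is compared between samples of the same probe and never between genes. In whole ganglia, a change in RNA per cell and a change in the number of cells of a type cannot be told apart.

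Of the 11 tested annexin probes, 1 was called, the brighter Anxa4 probe, which was higher in FD DRGs. This is 9.09% of the annexin probes, against 3.07% called among all tested probes. An unadjusted p under 0.05 was found for 3 of the 11 (Anxa4, Anxa8 and the brighter Anxa7 probe), against 17.6% of all probes. In 4 of the 11 (those 3 and Anxa5) the lowest FD sample exceeded the highest wildtype sample, and in 0 the reverse held, against 13.4% of all probes without overlap in either direction. The median difference of the annexin probes was 0.085, beside 0.019 over all tested probes, and 8 of the 11 differed by less than 0.1 in either direction. The median SE was 0.081 for annexin probes and 0.088 for all.

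**Figure D1:**
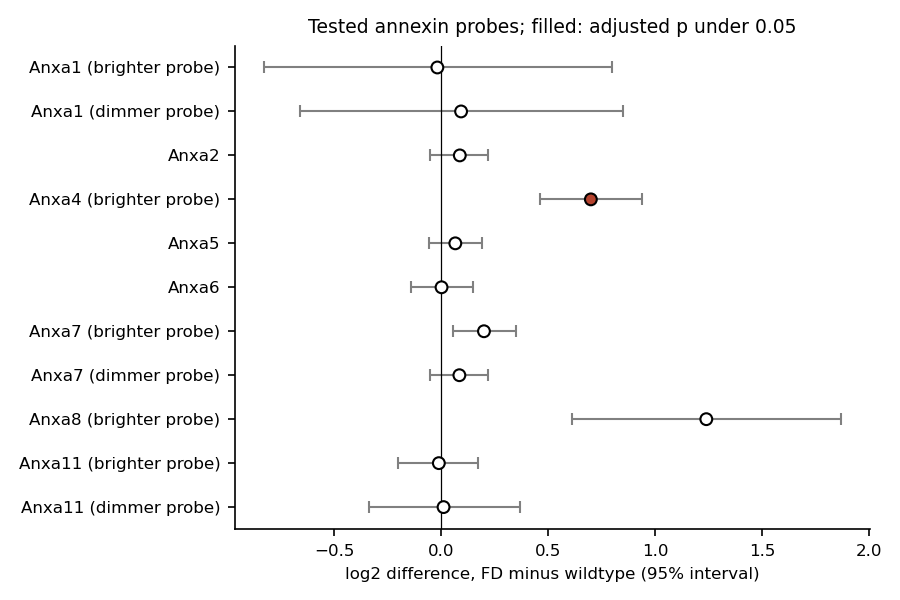
Difference of each of the 11 tested annexin probes between 4 FD and 4 wildtype samples, on the log2 scale (horizontal axis), with the 95% interval of limma as bars. The brighter Anxa4 probe is the filled point at 0.70, Anxa8 lies at 1.24 with an interval from 0.61 to 1.87, and the intervals of Anxa2, Anxa5, Anxa6, Anxa11 and both Anxa1 probes include 0.

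Anxa4, a protein of secretory and epithelial membranes that binds lipid in a calcium-dependent way, rose in FD DRGs. Its brighter probe had log2 signals of 11.89, 11.89, 11.43 and 11.81 in FD samples 1 to 4 and of 11.04, 11.17, 11.04 and 10.97 in wildtype samples 1 to 4. All 4 FD samples lay above all wildtype samples, with FD sample 3 the lowest of its group and still 0.27 above the highest wildtype sample. The difference was 0.70 (SE 0.11, 95% interval 0.46 to 0.94), a 1.63-fold increase (1.37 to 1.92) with adjusted p = 0.011 in limma, and 99.4% of all tested probes had a lower difference. Arrays lay in 2 rows of the slide, with 3 FD samples and 1 wildtype sample in the first row and the reverse in the second. The difference was 0.70 within the first row, 0.75 within the second and 0.73 with the row as a block (adjusted p = 0.0319).

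The dimmer Anxa4 probe lay close to the background and was higher in FD samples 1, 2 and 4. Its log2 signals were 5.09, 4.96, 2.51 and 4.81 in FD samples and 2.71, 2.56, 2.56 and 2.68 in wildtype samples. It was well above background only in FD samples 1 and 2, not in any wildtype sample, and FD sample 3 was at the wildtype level. The mean of the FD samples, 4.34, was below the mean floor of detection of the wildtype arrays, 4.76, so no fold is given. FD sample 3 was thus the lowest FD sample on both probes, and the correlation of the probes over the 8 samples was r = 0.92 as a description, which holds the difference between the groups. Under the methods' t-test, which takes the spread of each probe alone, the brighter probe had an unadjusted p of 0.00446 and an adjusted p of 0.13 and was not called, whereas adjusted p lay between 0.00301 and 0.0458 in the other settings run over all samples. The methods' t-test called 0 of the 11 annexin probes, against 0.904% of all tested probes. Its criteria before adjustment (p no larger than 0.01, fold no smaller than 1.2) were met by 2 annexin probes, those of Anxa4 and Anxa8, against 3.56% of all tested probes.

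The genes whose signal over the 8 samples was most like that of the brighter Anxa4 probe were Cystm1, Orai3 and Adora2b, each with Pearson r = 0.98 among the tested genes. Within groups, after each group mean was taken off, the correlations were 0.858, 0.85 and 0.869. Much of the within-group spread of Anxa4 came from FD sample 3, at 11.43 against 11.81 to 11.89 in the other FD samples. These correlations therefore rest largely on 1 sample. Orai3, a subunit of store-operated calcium channels, was called with a difference of 0.31 (adjusted p = 0.0297 in limma), and Adora2b, an adenosine receptor, with 1.04 (adjusted p = 0.00139). Cystm1, a small membrane protein, differed by 0.23 with adjusted p = 0.0526 and was not called. These genes were taken as the highest correlations in the whole array. The brighter Anxa4 probe separates the groups, so genes picked for following it over the 8 samples tend to separate them too. Their calls are therefore not a further result.

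**Figure D2:**
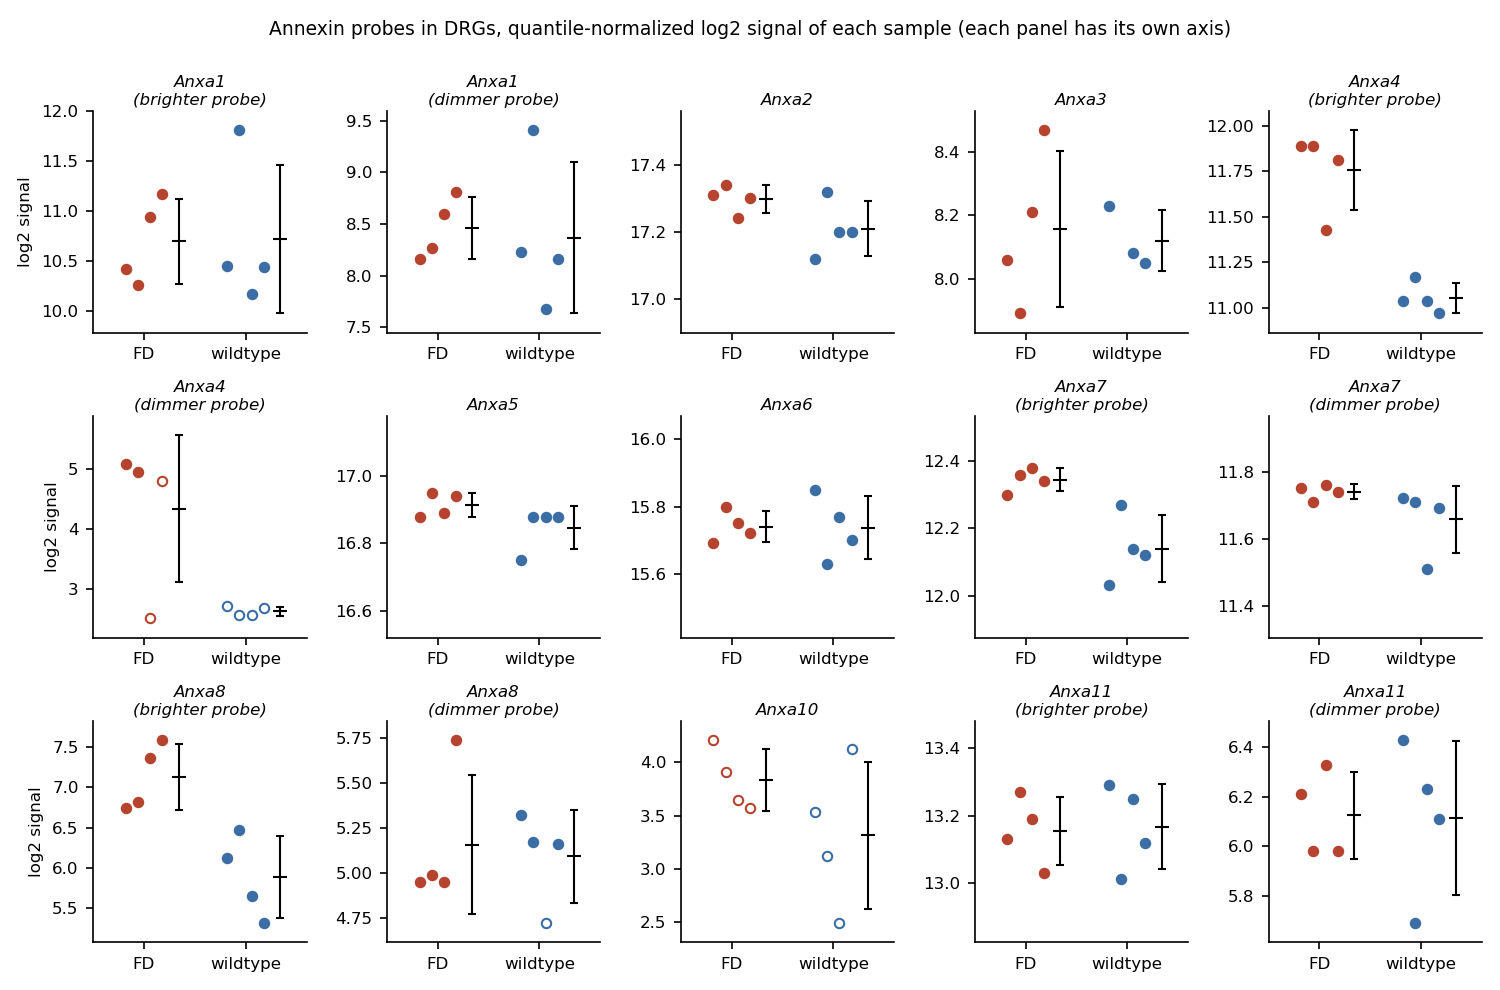
Quantile-normalized log2 signal of all 15 annexin probes in 4 FD and 4 wildtype samples, one point per sample in the order of the replicate numbers, with mean and SD in black and an axis of its own for each probe (wildtype sample 2 has no value for Anxa3). Hollow points were not well above background. The FD and wildtype points are apart for the brighter probes of Anxa4, Anxa7 and Anxa8 and overlap for Anxa1, Anxa2, Anxa6 and Anxa11.

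Anxa8, an annexin of late endosomes that few normal tissues other than stratified epithelia express strongly, had the largest difference among the tested annexin probes, and it missed the threshold by a small margin. The log2 signals of its brighter probe were 6.74, 6.82, 7.37 and 7.59 in FD samples 1 to 4 and 6.12, 6.47, 5.65 and 5.31 in wildtype samples 1 to 4. The groups did not overlap, and the lowest FD sample was 0.27 above the highest wildtype sample. The difference was 1.24 (SE 0.28, 95% interval 0.61 to 1.87), or 2.36-fold (1.53 to 3.65), with an unadjusted p of 0.00164 and adjusted p = 0.0512 in limma. This probe was printed 10 times on each array, and the used spots of one array had an SD between 0.044 and 0.39 before normalization, so that most of the spread lay between samples. In wildtype sample 4, the lowest of all, 7 of the 10 spots were well above background, and in each other sample all used spots were.

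The call of Anxa8 went either way with the processing. Adjusted p was 0.0447 in the deposited table of values, 0.028 with normexp background correction, under which the difference shrank to 0.69, and 0.033 without wildtype sample 2, under which it was 1.44. It was 0.129 without FD sample 3 and 0.176 in the methods' t-test. Within the first row of the slide the difference was 0.86, within the second 1.78, and with the row as a block 1.32 (adjusted p = 0.0836).

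The dimmer Anxa8 probe did not separate the groups. Its log2 signals were 4.95, 4.99, 4.95 and 5.74 in FD samples and 5.32, 5.17, 4.72 and 5.16 in wildtype samples, with FD sample 4 the highest and the other FD samples among the wildtype ones. It was not well above background in wildtype sample 3 and lay near the floor elsewhere, and in the fits with a looser filter its difference was 0.065. Over the 8 samples the 2 probes correlated with r = 0.387, although both read NM_013473 on the same strand. The brighter probe therefore carries the Anxa8 result alone.

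Anxa8 lies in a stretch of chromosome 14 where called genes were frequent. Of the 16 other genes with a tested probe within 1 Mb of the brighter Anxa8 probe, 6 were called (37.5%), against 3.12% of all 21063 genes at their brightest tested probe. Of these, 3 were higher in FD: Opn4, the light sensor melanopsin, by 1.86, Mapk8, a stress-activated kinase, by 0.70, and Arhgap22 by 0.34. The other 3 were lower: Syt15, a synaptotagmin, fell by 1.89, Sncg, a synuclein of sensory neurons, by 0.69, and Mmrn2, an endothelial matrix protein, by 0.47. The changes on this stretch thus ran in both directions, and the nearest tested gene, Antxrl at 25 kb, differed by 0.012. The count was 4 to 7 of 16 in the alternatives tried.

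The stretches around the other annexins held at most 2 called genes each, to be read against 3.12% of all genes. Within 1 Mb the count was 1 of 32 tested genes at Anxa4 (3.12%, 1810020O05Rik). It was 2 of 19 at Anxa6 (10.5%, Fnip1 and Gm2a) and 2 of 30 at Anxa7 (6.67%, Mss51 and Gm5458). At Anxa1, Anxa2, Anxa3, Anxa5, Anxa10 and Anxa11 it was 0. Gm2a, the activator protein of lysosomal ganglioside breakdown, lies 134 kb from the Anxa6 probe and was higher in FD by 0.27 (adjusted p = 0.0476 in limma). Mss51, 27 kb from the brighter Anxa7 probe, fell by 0.79 (adjusted p = 0.00644).

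**Figure D3:**
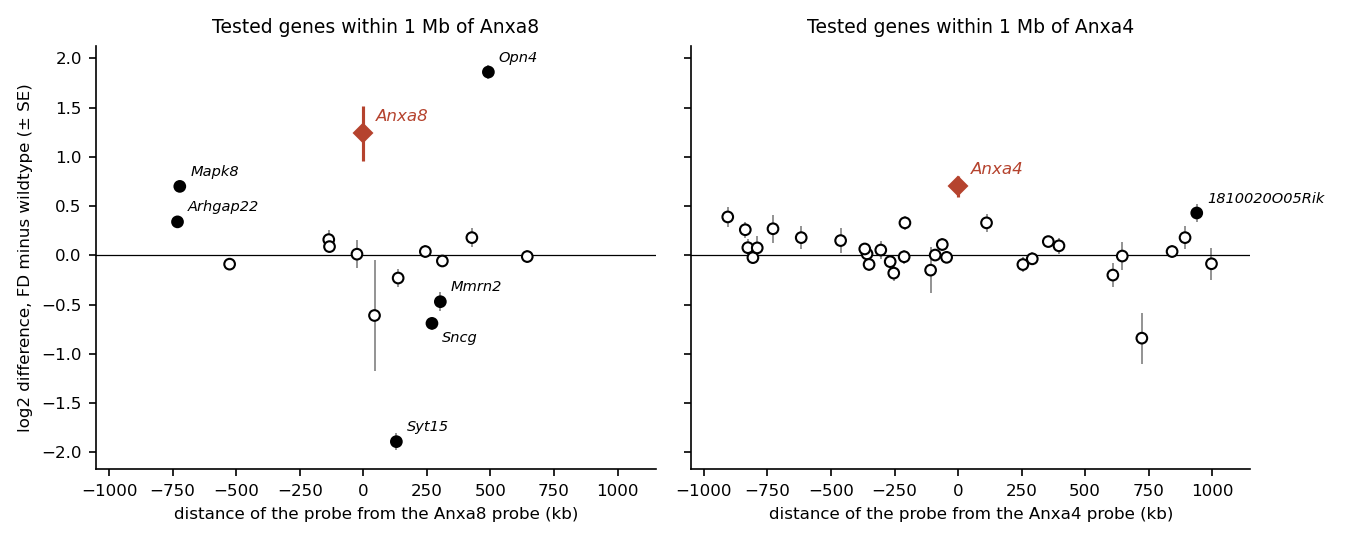
Difference between FD and wildtype on the log2 scale (vertical axis, with SE) of tested genes against the distance of their probe from the Anxa8 probe (left) and the Anxa4 probe (right), in kb. Filled points were called. Around Anxa8, 6 of 16 genes were called, with Opn4 at 1.86 and Syt15 at -1.89, and around Anxa4, 1 of 32.

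Anxa7, a protein that brings secretory granules together, had 2 probes. Its brighter probe had log2 signals of 12.3, 12.36, 12.38 and 12.34 in FD and 12.03, 12.27, 12.14 and 12.12 in wildtype. The FD samples lay close together and just above all wildtype samples, by 0.025 at the nearest. The difference was 0.20 (SE 0.064), or 1.15-fold, with adjusted p = 0.143, and it was called only when arrays were weighted (adjusted p = 0.0458). The dimmer probe gave 11.75, 11.71, 11.76 and 11.74 in FD and 11.72, 11.71, 11.51 and 11.69 in wildtype, so the groups overlapped, and the difference was 0.085 with adjusted p = 0.51.

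Anxa1, the anti-inflammatory annexin that is released from neutrophils and acts on formyl peptide receptors, did not pass the test and had the largest SEs among the tested annexin probes. Its brighter probe had log2 signals of 10.42, 10.26, 10.94 and 11.17 in FD and 10.45, 11.81, 10.17 and 10.44 in wildtype. Its dimmer probe had 8.16, 8.27, 8.6 and 8.81 in FD and 8.23, 9.41, 7.68 and 8.16 in wildtype. On both probes, wildtype sample 2 was the highest and wildtype sample 3 the lowest of all 8, and FD samples 3 and 4 came next below wildtype sample 2. The differences were -0.018 (SE 0.36, 95% interval -0.83 to 0.80, adjusted p = 0.984) and 0.093 (SE 0.33, interval -0.66 to 0.85, adjusted p = 0.912). Those SEs were larger than those of 98.9% and 98.6% of all tested probes, while the 2 probes followed each other with r = 0.965 over the samples, so the spread was shared by both spots. The intervals leave room for changes of up to 1.8-fold.

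Markers of neutrophils followed nearly the same order of samples as Anxa1. The mean log2 signal of S100a8, S100a9, Ly6g, Camp and Ngp was 10.7, 10.77, 11.5 and 11.55 in FD and 11.42, 12.36, 9.54 and 11.27 in wildtype samples 1 to 4. It was highest in wildtype sample 2 and lowest in wildtype sample 3, with 0 of the 5 genes called between groups. With S100a9, a calcium-binding protein that fills neutrophils, the range ran from 12.84 in wildtype sample 3 to 15.91 in wildtype sample 2. The summed linear signal of the 5 genes ran from 27400 to 55800 in FD and from 10900 to 97400 in wildtype.

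Over the 8 samples the brighter Anxa1 probe correlated with the neutrophil mean with Pearson r = 0.82 and Spearman rho = 0.98 (exact permutation p = 0.0112 and 0.000397). The dimmer probe gave r = 0.89 and rho = 0.88 (exact permutation p = 0.00449 and 0.00724). Without wildtype samples 2 and 3, the samples farthest from the median of the neutrophil mean, r was 0.74 and 0.64. These were among 132 relations of 11 annexin probes with 12 marker lists, and after adjustment over all of them p was 0.216 and 0.19 for Pearson r and 0.0524 and 0.159 for Spearman rho in the two-sided exact permutation tests, so neither passed. Of the 132, 15 had an exact permutation p under 0.05 for Pearson r before adjustment and 0 after it, for r as for rho. Not all of the 15 are described one by one. Among them were Anxa5 and the brighter Anxa7 probe with the endothelial mean (r = -0.71 and -0.74).

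Anxa1 ran against the markers of 2 other cell types, about as strongly by Pearson r but more weakly by rho for sensory neurons. With the mean of 8 Schwann cell and myelin markers, the brighter probe gave r = -0.79 and rho = -0.79 (exact permutation p = 0.0171 and 0.0279, 0.238 and 0.335 after adjustment), and the dimmer r = -0.85 and rho = -0.90 (exact permutation p = 0.0066 and 0.00456, 0.19 and 0.151 after adjustment). Without FD sample 4 and wildtype sample 3, the farthest from the median there, r was -0.75 and -0.78. With the mean of 10 sensory neuron markers r was -0.82 for both probes (exact permutation p = 0.0181 and 0.0131, 0.238 and 0.216 after adjustment). There rho was only -0.52 and -0.55 (exact permutation p = 0.197 and 0.171, 0.633 for both after adjustment), and r was -0.53 and -0.62 without wildtype samples 1 and 2. The Anxa1 signal was thus high where the neutrophil mean was high and the Schwann cell mean was low. This did not hold in each sample for the sensory neuron mean, which spanned only 15.52 to 15.65. FD sample 3, high in Anxa1, had a sensory neuron mean of 15.63. The number of neutrophils in the samples was not measured, and its part in the Anxa1 signal was not tested.

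**Figure D4:**
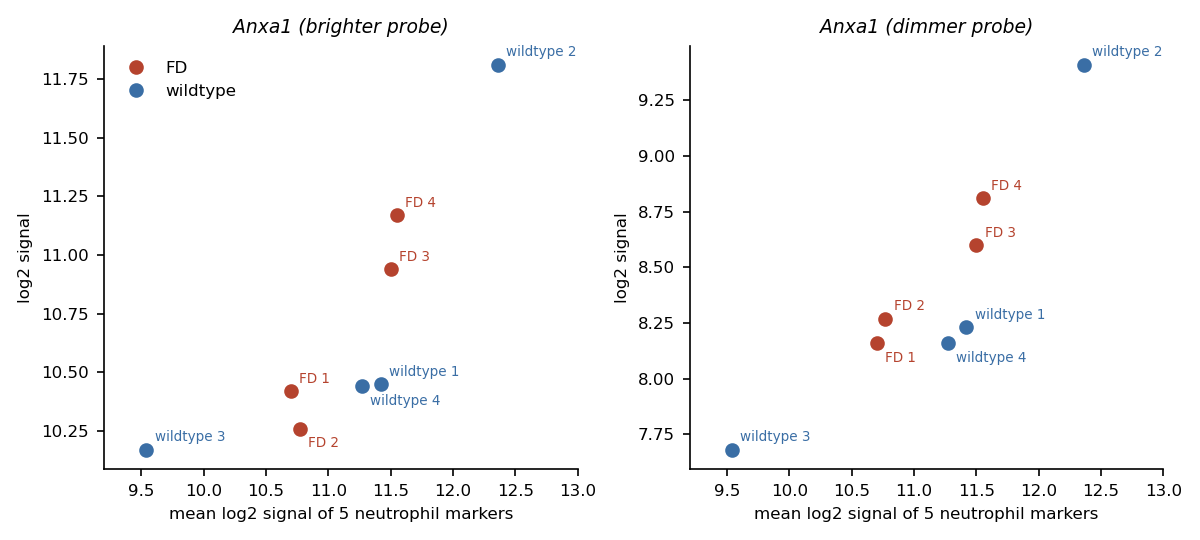
Log2 signal of the brighter (left) and dimmer (right) Anxa1 probe against the mean log2 signal of 5 neutrophil markers, one point per sample, named by group and replicate. Wildtype sample 2 is highest on both axes (11.81 and 9.41 for Anxa1, 12.36 for the markers) and wildtype sample 3 lowest on both (10.17, 7.68 and 9.54), with the FD samples between them.

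Anxa3, another annexin known from neutrophil granules, lacked a value in wildtype sample 2, where its single spot was marked as an outlier, and was therefore not tested. Its log2 signals were 8.06, 7.89, 8.21 and 8.47 in FD and 8.23, 8.08 and 8.05 in wildtype samples 1, 3 and 4, so the groups overlapped. A fit that left out wildtype sample 2 for this probe gave a difference of 0.036 (adjusted p = 0.916), and one that kept the marked spot, at 10.09 far above all other samples, gave -0.45 (adjusted p = 0.62). Wildtype sample 2 was also the highest sample of Anxa1 and of the neutrophil markers, and the reason for the mark on the spot was not tested.

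The single tested receptor of Anxa1, the formyl peptide receptor Fpr1 of neutrophils, had log2 signals of 5.52, 5.77, 6.43 and 6.51 in FD and 6.35, 7.64, 5.29 and 5.98 in wildtype. Wildtype sample 2 was again the highest and wildtype sample 3 the lowest, and the difference between groups was -0.25 (SE 0.46, adjusted p = 0.809). Of the 5 receptor genes listed, the other 4 were not well above background on all arrays or lacked a value.

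Anxa2, which with S100a10 forms a complex that binds plasminogen and its activator at the cell surface, did not pass the test. Its log2 signals were 17.31, 17.34, 17.24 and 17.3 in FD and 17.12, 17.32, 17.2 and 17.2 in wildtype, so wildtype sample 2 fell within the FD range. The difference was 0.087 (SE 0.06, 95% interval -0.051 to 0.22, adjusted p = 0.495), which is a fold between 0.965 and 1.17.

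Anxa5, the phosphatidylserine-binding protein used to label dying cells, had signals of 16.88, 16.95, 16.89 and 16.94 in FD and 16.75, 16.88, 16.88 and 16.88 in wildtype. The FD samples lay above the wildtype ones by only 0.00057 at the nearest, and the difference was 0.066 (SE 0.055, adjusted p = 0.569). Anxa6, which has a doubled core and works on endosomes, had 15.69, 15.8, 15.75 and 15.72 in FD and 15.85, 15.63, 15.77 and 15.7 in wildtype. The wildtype samples spanned the FD ones, and the difference was 0.0016 (SE 0.063, 95% interval -0.14 to 0.15, adjusted p = 0.992), so a change of more than 1.11-fold lay outside the interval.

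Anxa11, which tethers RNA granules to lysosomes for transport along axons, had means of 13.16 ± 0.10 in FD and 13.17 ± 0.12 in wildtype on its brighter probe (SD, n = 4). The dimmer probe gave 6.13 ± 0.17 and 6.12 ± 0.31. The groups overlapped on both, with differences of -0.011 (SE 0.081, adjusted p = 0.958) and 0.011 (SE 0.16, adjusted p = 0.979). Wildtype sample 1 was the highest and wildtype sample 2 the lowest sample on both probes, with 13.29 and 13.01 on the brighter and 6.43 and 5.69 on the dimmer one. The mean of 10 sensory neuron markers also had its highest value in wildtype sample 1, 15.65, and its lowest in wildtype sample 2, 15.52. The Anxa11 probes correlated with it at r = 0.87 and 0.93 and rho = 0.90 and 0.88 (exact permutation p = 0.00221 and 0.00117 for r, 0.146 for both after adjustment over the 132 relations, and 0.00456 and 0.00724 for rho, 0.151 and 0.159 after adjustment). Without wildtype samples 1 and 2, r was 0.78 and 0.76. This was not particular to Anxa11, as Anxa6 followed the same mean with r = 0.82 and rho = 0.86. The exact permutation p was 0.0118 and 0.0107, or 0.216 and 0.177 after adjustment, and r was 0.47 without wildtype samples 1 and 2. The share of neuronal RNA in the samples was not measured, and its part was not tested.

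Anxa10, a gastric annexin without working calcium sites, was not well above background on any array, with log2 signals from 3.57 to 4.21 in FD and 2.49 to 4.13 in wildtype. Among the annexins on the array that were not members, Anxa9 had signals of 6.75 to 7.13 in FD and 6.87 to 7.24 in wildtype (difference -0.15, SE 0.11, adjusted p = 0.514), and Anxa13, an intestinal annexin, was not well above background on any array.

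Genes that act with annexins were taken from 6 lists, of which 86 of 88 genes were on the array and 64 had a tested probe. Of those 64, each at its brightest tested probe, 0 were called in limma, against 3.12% of all genes. The methods' t-test also called 0, against 0.921% of all genes in that test. An unadjusted p under 0.05 was found for 6 (4 higher and 2 lower in FD), or 9.38%, against 17.7% of all genes, and the median difference was -0.022, beside 0.019 over all genes.

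In the list of plasmin generation at annexin A2, with 6 tested genes, Plau, the urokinase that activates plasminogen, had the smallest p of all. Its log2 signals were 6.45, 6.12, 6.69 and 6.39 in FD and 6.1, 5.75, 6.06 and 5.68 in wildtype. The groups did not overlap, but the nearest samples lay close together. The difference was 0.51 (SE 0.14, 1.43-fold, adjusted p = 0.0986), and Plgrkt, a plasminogen receptor, differed by 0.19 (adjusted p = 0.511).

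Among 9 tested calcium-binding partners of annexins, S100a13 differed by 0.17 (SE 0.056, adjusted p = 0.157), with 13.78 to 13.84 in FD and 13.54 to 13.69 in wildtype, and S100a4 by -0.24 (adjusted p = 0.291). Of 17 tested membrane repair genes, the protease gene Capn1 differed by -0.29 (adjusted p = 0.213) and the caveolar coat gene Cavin1 by -0.21 (adjusted p = 0.291). Of 21 tested genes that expose or recognise phosphatidylserine, the lipid to which annexins bind, the scramblase Xkr8 differed by 0.18 (adjusted p = 0.126) and the receptor Stab2 by -0.72 (SE 0.27, adjusted p = 0.208). Stab2 was 4.95 to 5.19 in FD and 5.23 to 6.66 in wildtype. Its FD signals were as low as those of the dimmer Anxa8 probe, near the floor. Wildtype sample 2 alone reached 6.66, with 5.23 to 5.87 in the other wildtype samples, so the size of the difference rests in part on it.

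Of 10 tested genes of phospholipase A2 and eicosanoid steps, Pla2g6 differed by -0.15 (adjusted p = 0.385) and the brightest probe of Pla2g2d, a secreted phospholipase, by -0.16 (adjusted p = 0.442). Another Pla2g2d probe was called, with a difference of -0.66 (SE 0.10, adjusted p = 0.013 in limma), and it was the only partner gene with any called probe. The probes of this gene thus disagreed in size but not in sign.

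Markers of other cells in the ganglion are given because annexins are expressed by several of them, and calls in the lists are to be read against 3.12% of all genes. In 2 lists a marker was called. Of 9 tested fibroblast and perineurium markers, Slc2a1, a glucose transporter of perineurial cells, was higher in FD by 0.33 (adjusted p = 0.0412 in limma), with a list median of -0.094. Slc2a1 was the only 1 of the 9 with a positive difference. Itgb4 of the same list differed by -0.30 (adjusted p = 0.0722 in limma) and Dcn by -0.29 (adjusted p = 0.0806), so the list did not rise as a whole. Of 10 sensory neuron markers, Tac1, the precursor of substance P, was higher by 0.34 (adjusted p = 0.0493), with a list median of -0.029. The lowest median was that of 3 erythrocyte markers at -0.41, with 0 called and a summed linear signal of 17100 to 28000 in FD and 24300 to 34500 in wildtype.

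For meninges, 0 of 7 tested markers were called and the median difference was -0.32, with 4 of the 7 lower at an unadjusted p under 0.05 and a summed linear signal of 11300 to 18100 in FD and 14000 to 23600 in wildtype. An unadjusted p under 0.05 in either direction was found for 17.7% of all genes. Meninges did not stand alone, as 3 of 7 endothelial, 2 of 8 Schwann cell and 2 of 3 erythrocyte markers were lower at that threshold. For endothelium, 0 of 7 were called with a median of -0.20, and the summed signal was 8140 to 9000 in FD and 9160 to 10400 in wildtype, which did not overlap. No single endothelial marker separated the groups, and 1 of the 7, Kdr, had a positive difference (0.13). For Schwann cells, 0 of 8 were called with a median of -0.14 and sums of 99300 to 109000 and 108000 to 121000. Smooth muscle and pericyte markers had a median of -0.21 with 0 of 7 called, macrophage markers -0.14 with 0 of 8, satellite glia -0.025 with 0 of 7, T and B cells -0.088 with 0 of 2, and skeletal muscle -0.023 for its 1 tested gene, not called. Of the 8 macrophage markers, 1, Cd68, had a positive difference (0.51, adjusted p = 0.0573 in limma). Its log2 signals were 9.15 to 9.65 in FD and 8.62 to 8.92 in wildtype.

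The Schwann cell and endothelial means are set beside Anxa8 and Anxa4 here, picked from the 12 marker lists after the values were seen. The median difference was negative in each of the 12 lists. A mean that is lower in FD tends to run against probes that are higher in FD, such as those of Anxa4 and Anxa8. The mean log2 signal of the Schwann cell markers was 12.52, 12.54, 12.44 and 12.34 in FD and 12.57, 12.39, 12.71 and 12.69 in wildtype. It was lowest in FD sample 4, which had the highest Anxa8 signal, and highest in wildtype samples 3 and 4, which had the lowest. The groups overlapped on this mean, as wildtype sample 2 lay below FD samples 1 to 3. The endothelial mean was 9.36, 9.36, 9.34 and 9.27 in FD and 9.54, 9.49, 9.54 and 9.38 in wildtype. All FD samples thus lay below all wildtype samples while Anxa4 and Anxa8 lay above, but the nearest means, 9.36 and 9.38, were close. The groups do not overlap on the brighter Anxa4 and Anxa8 probes. Their correlations with marker means over the 8 samples are therefore not given one by one, though they were counted among the 132 relations. The part of these markers in either was not tested.

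The arrays were alike in quality. Between 56.5% and 60.8% of the probes were well above background on an array, 93 to 221 spots per array were marked as outliers, 0 were saturated, and the correlation between 2 arrays over the tested probes was 0.9905 to 0.9978. Nothing in the labels says whether the samples of a group came from separate litters or cages, and p-values measure the spread between these pools.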

How the data were processed

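RNA of 8 DRG pools was hybridized in 1 color to the 8 arrays of 1 slide. The spot values are intensity values deposited by the authors, with background adjustment and detrending done per array in Agilent Feature Extraction (version 10.7.3.1 in the submitters' processing notes). The table of log2 values deposited by the authors, quantile normalized in GeneSpring, was an alternative. From the spots, log2 processed signals were averaged per probe without outlier spots, quantile normalized and compared (FD minus wildtype) with limma 3.58.1 in R 4.3.3, over 29432 probes well above background on all 8 arrays (for probes with several spots, at least 0.5 of them). P-values were adjusted by Benjamini-Hochberg and called under 0.05. Lists used the brightest tested probe of each gene. The number of arrays limits precision.

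Every annexin probe is named, as are, per partner list, called genes and the 2 smallest p-values, and the 3 genes most like each called annexin. Neighbours lay within 1 Mb by mm9 probe positions, and those named were called, chosen after their values were seen. So were the S100a9, Prph, Uchl1 and Tubb3 examples, and the annexin and marker relations that are printed. Members and lists were chosen with earlier results of these data known. Both groups carry replicate numbers 1 to 4, and deviations of same-numbered samples correlated at 0.06, -0.25, -0.05 and -0.02, so the numbers do not pair samples. Scripts were tested on simulated data.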

Additional observations from a re-analysis of the deposited data

Results flagged for a closer look

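In 6 of the groups of 4 samples checked over all annexin probes, 1 sample stood far from the other 3, measured by its gap to the nearest sample over the whole range of the group. Chance gives this in about 1 in 20 groups, and 33 groups were checked. Wildtype sample 2 stood above its group for the brighter Anxa1 probe, at a log2 signal of 11.81. FD sample 3 stood below its group on both Anxa4 probes, at 11.43 (gap 0.831 of the range) and 2.51 (0.89). Wildtype sample 1 was low for Anxa5 at 16.75 (0.997), wildtype sample 3 was low for the dimmer Anxa7 probe at 11.51 (0.861), and FD sample 4 was high for the dimmer Anxa8 probe at 5.74 (0.947).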

How the results depend on the processing

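The count of called annexin probes was 1 and became 2 with normexp background correction, the deposited table and an intensity trend of the variance, 3 with array weights and 0 in the methods' t-test. It was 1 to 2 when a sample was left out, 2 without wildtype replicate 2. Anxa4 lost its call only in the methods' t-test (0.70, adjusted p = 0.13) and was 0.66 to 0.81 with a sample left out. Anxa8 was also called with array weights (1.39) and an intensity trend. Called partner genes stayed at 0 except for 1 when any probe counted, and were 0 with each sample left out. With the replicate block, 1 annexin probe (Anxa4, adjusted p = 0.0458), 0 partner genes and 284 probes in all were called, against 904 without it, and no other annexin call changed. The methods' t-test called 266 (0.904%) and array weights 2102. Called neighbours of Anxa8, 6 of 16, were 4 to 6 with a sample left out. Signs turned for probes near 0, none called. The brighter Anxa1 probe gave 0.0047 by the 75th percentile, 0.23 with the slide row and 0.13 with array weights (-0.20 to 0.35 leaving out samples), and the dimmer -0.14 to 0.44 leaving out samples. Anxa6 gave -0.018 with normexp and -0.042 with the slide row (-0.034 to 0.036). The brighter Anxa11 probe gave 0.041 by the 75th percentile (-0.063 to 0.029), and the dimmer -0.046 by the 75th percentile, -0.024 with normexp, -0.14 with the slide row and -0.017 with array weights (-0.13 to 0.12). The cause of these changes was not tested. The fit that kept probes with a missing array and the alternatives for the Anxa8 neighbours were added after seeing the data. Signal near background limits Anxa10 and the dimmer probes of Anxa4 and Anxa8.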
